A study of Canis lupus familiaris with 15 samples.

Results

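HMPOS is a highly metastatic canine osteosarcoma cell line, derived from the POS line, and the comparison described here is that of HMPOS cells that had left the blood vessels of a zebrafish with HMPOS cells that had never been in a fish. Its members are the 1189 gene rows of the authors' deposited table for extravasated against parental HMPOS cells, taken without any selection, out of 11347 rows in the 3 deposited tables of the series, which hold 7698 distinct gene identifiers. The other tables compare extravasated with parental D17 cells, a second canine osteosarcoma line (4412 rows), and parental HMPOS with parental POS cells (5746 rows).

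The study asked which transcripts differ in tumour cells that leave the vessels as clusters. Labelled cells were infused into the circulation of zebrafish embryos whose vessels carry EGFP under the fli1a promoter. Pieces of embryo holding extravasated cells were dissected and dissociated, and the surviving tumour cells were grown out as extravasation-positive sub-lines. The series has 15 libraries in 5 groups of 3, of which 6 are used here, 3 of extravasated HMPOS cells and 3 of the HMPOS parental line grown in culture alone. The extravasated group therefore differs from the parental group in passage through the embryo, dissociation and outgrowth together, and the tables hold no group of cells that was injected without extravasating or dissociated without injection, so these steps cannot be told apart. The study describes 3 isolated extravasated clusters as biological replicates, and the labels do not tie each library to a cluster.

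For each gene the authors deposited 1 FPKM value per group (fragment counts normalised to transcript length and library size), which stands for the 3 libraries of that group together. No value per library was used here, so depth, the spread between libraries and counting error are unknown, and no SD, interval or test of a gene's difference was computed. All 1189 genes had passed the authors' own test, and a gene that is not listed can have any level. The groups were taken from the column names of the table, in which the name for metastasis was read as extravasated and the name norm as parental. This reading is in doubt. The deposited ratio has the second column over the first, which by these names is parental over extravasated, and the article describes directions that are the reverse of those the named columns give. It reports VCAN (versican) as upregulated in extravasated cells of both lines. It also reports extracellular matrix organization and the interferon gamma response as enriched among downregulated genes, where most listed collagen and interferon-stimulated genes were higher by the columns as read. The HMPOS column of the table against POS, also named norm, holds nearly the same values as the norm column here, with a median difference of 0.00135 on the log2 scale over 907 genes, which shows that 1 group carries the name in both tables and not which cells it holds. With the names exchanged every direction given here would be exchanged, so that 392 genes would be higher and 797 lower in extravasated cells. The article's counts of up- and downregulated HMPOS genes are nearly the same as these exchanged counts. Throughout, extravasated and parental stand for the columns so read. Below, 2 values joined by "against" are the extravasated and then the parental FPKM, a log2 ratio is extravasated over parental, and "higher" and "lower" describe the extravasated group.

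To leave a vessel, tumour cells have to attach to the vessel wall, remodel or push apart its basement membrane and survive in the tissue beyond. Osteosarcoma cells secrete much of the matrix that osteoblasts make, chiefly type I collagen, SPARC and small proteoglycans, together with the metalloproteinases that cut it. Interferon-stimulated genes and class I antigen presentation genes form a separate programme that cells switch on in answer to interferons or to foreign nucleic acid.

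Most listed genes were higher in the column read as extravasated HMPOS cells, and with the names exchanged most would be lower. At any fold change 797 of 1189 were higher (67%) and 392 were lower (33%), and the median log2 ratio of all of them was 0.58. Past a 2-fold difference 244 genes were higher (20.5%) and 57 were lower (4.79%), so that 25.3% of the listed genes passed it in either direction. The smallest listed difference was 1.31-fold. The higher genes had a median fold of 1.71 and the lower genes a median fold of 1.46, so differences in both directions were mostly modest. The excess of higher genes is a statement on FPKM as deposited. Set against the median of the listed genes, instead of against equal FPKM, 72 genes were higher and 361 lower by more than 2-fold. That median comes from genes that had passed a test, none of them below 1.31-fold, so it does not mark equal expression. The counts set against it cannot show how far the excess rests on normalisation.

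**Figure D1:**
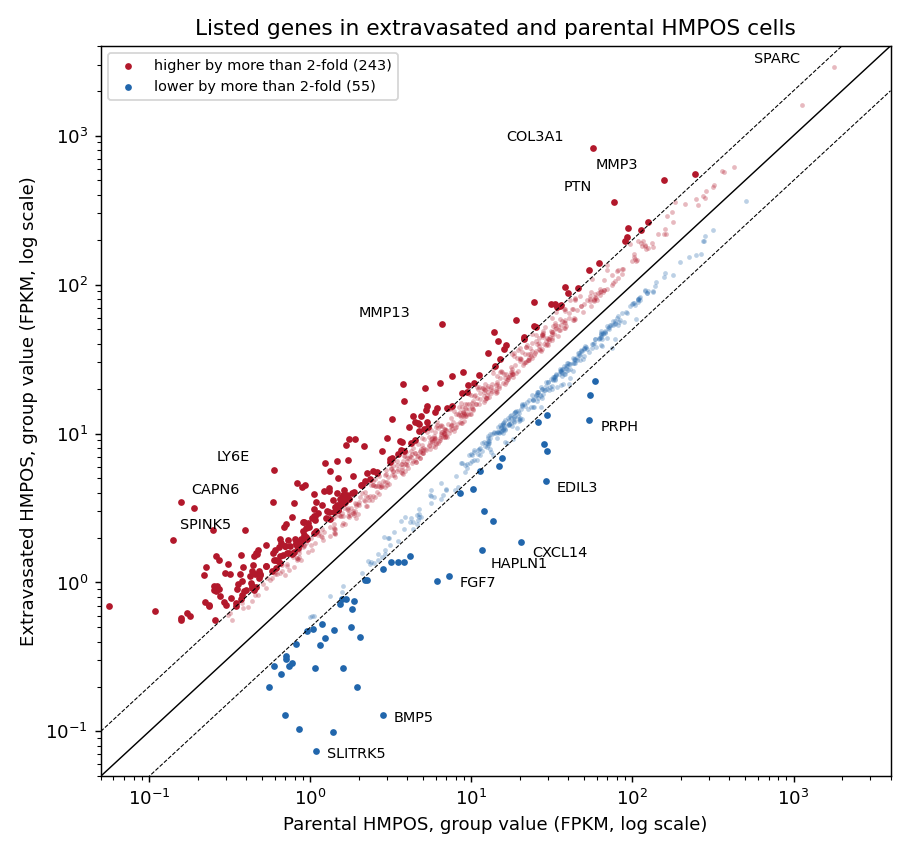
Group FPKM of the listed genes in parental (horizontal axis, log scale) and extravasated (vertical axis, log scale) HMPOS cells, 1 point per gene with a value above 0 in both groups. Red points are higher and blue points lower in extravasated cells, strong colours mark differences of more than 2-fold (dashed lines), and the most distant points include COL3A1 at 822 against 56.7 FPKM and CXCL14 at 1.86 against 20.5 FPKM.

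The direction of a listed gene is given next by its level in parental cells, which is also the denominator of the ratio, so that a gene near 0 there could hardly be listed as lower. Below 1 FPKM in parental cells 165 genes were listed and 92.7% of them were higher, and from 1 to below 10 FPKM 434 were listed and 80.2% were higher. From 10 to below 100 FPKM 518 genes were listed with 49.4% higher, and from 100 FPKM upwards 72 were listed with 55.6% higher. The table thus held a majority of higher genes at low parental levels and near equal numbers from 10 FPKM on. The width of a gene's deposited interval went with direction as well. Of 527 genes with an interval below 25 kb 81.2% were higher, and of 662 genes with an interval of 25 kb or more 55.7% were higher. An interval need not be the length of a single gene, since B3GNT9 and C5H16orf70 carry the same interval. The part of level and interval width in the counts of the gene groups below was not tested.

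In FPKM the listed genes summed to 42748 in extravasated and 34395 in parental HMPOS cells, with increases that added up to 13013 FPKM and decreases to -4660 FPKM. The 5 largest increases in FPKM were those of SPARC, COL3A1, LGALS1, MMP3 and MMP2. SPARC (osteonectin), a collagen-binding glycoprotein of bone matrix, stood at 2897 against 1777 FPKM and COL3A1, the chain of type III collagen, at 822 against 56.7 FPKM, and these 2 genes made up 14.5% of the summed increase. LGALS1 (galectin-1), a secreted lectin that binds matrix and cell surface glycans, stood at 1609 against 1126 FPKM. The matrix proteinases MMP3 (stromelysin-1) and MMP2 (gelatinase A) stood at 505 against 158 FPKM and 556 against 243 FPKM, and the 5 genes together made up 23.3% of the increase. Among the 10 listed genes with the highest FPKM were also PCOLCE, which enhances procollagen cleavage, at 615 against 425 FPKM, TPM1 (tropomyosin), an actin filament protein, at 577 against 361 FPKM, the secreted serine protease HTRA1 at 566 against 371 FPKM and the calcium-binding protein S100A11 at 469 against 322 FPKM.

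The decreases in FPKM were smaller. VCP, an ATPase that extracts ubiquitinated proteins for degradation, was the only 1 of the 10 most abundant listed genes that was lower, at 361 against 510.0 FPKM. PEG10, an imprinted gene derived from a retrotransposon, stood at 160.0 against 265 FPKM and ELOVL5, an elongase of polyunsaturated fatty acids, at 157 against 248 FPKM. CDK1, the kinase that drives entry into mitosis, stood at 233 against 316 FPKM, and HNRNPDL, an RNA-binding protein, at 195 against 278 FPKM.

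By ratio, the largest increase was that of CAPN6 (ENSCAFG00000018175, chromosome X, 84351484 to 84377324), a calpain family member that binds microtubules, at 3.49 against 0.157 FPKM. Positions are those of the deposited table, and the build named in the submitters' processing notes is CanFam3.1. SPINK5, a secreted inhibitor of serine proteases best known from skin, stood at 3.18 against 0.191 FPKM, and COL3A1 (ENSCAFG00000014812, chromosome 36, 30487821 to 30526563) followed with a log2 ratio of 3.86. COL3A1 was the only 1 of the 12 largest increases that was already above 50 FPKM in parental cells.

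The others were mostly low in parental cells. DKK2, a secreted modulator of Wnt receptors, stood at 1.92 against 0.1405 FPKM, LY6E, a GPI-anchored surface protein induced by interferon, at 5.68 against 0.595 FPKM, and ADAMTSL1, a matrix protein related to the ADAMTS proteases but without a protease domain, at 2.23 against 0.247 FPKM. MMP13 (collagenase-3), which cleaves fibrillar collagen in bone and cartilage, stood at 54.1 against 6.55 FPKM. DCLK3, a doublecortin-like kinase, was at 3.49 against 0.583 FPKM, and MPZL2, an epithelial adhesion protein, at 1.51 against 0.259 FPKM. CCL5 (RANTES), a chemokine for T cells and monocytes, was at 2.27 against 0.391 FPKM, SAA1, an acute-phase protein, at 21.7 against 3.78 FPKM, and CPNE5, a calcium-dependent membrane-binding protein, at 1.28 against 0.227 FPKM. With 1 FPKM added to both groups all of these ratios shrank, most for genes near 0 in parental cells.

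The largest decrease was that of BMP5 (ENSCAFG00000002345, chromosome 12, 23087863 to 23202150), a bone morphogenetic protein ligand, at 0.129 against 2.84 FPKM. A row whose symbol a spreadsheet had turned into a date (11-Mar, at 0.198 against 1.95 FPKM, a log2 ratio of -3.31) was passed over as having no gene symbol, and the 12 largest decreases given here are those of the other rows. SLITRK5, a synaptic adhesion protein, stood at 0.0741 against 1.09 FPKM, NEFH, the heavy neurofilament subunit, at 0.0998 against 1.37 FPKM, and PRPH (peripherin), an intermediate filament of peripheral neurons, at 12.3 against 54.02 FPKM. TMIE, a component of the hair cell transduction channel, was at 1.02 against 6.099 FPKM and PIEZO2, a stretch-activated ion channel of sensory neurons, at 2.59 against 13.7 FPKM.

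Of the other 6 genes, CXCL14, a chemokine expressed widely in epithelia, stood at 1.86 against 20.5 FPKM, FGF7 (keratinocyte growth factor) at 1.11 against 7.22 FPKM and IBSP (bone sialoprotein), a mineral-binding protein of bone, at 0.427 against 2.05 FPKM. IFITM10, a relative of the antiviral IFITM proteins, was at 0.265 against 1.61 FPKM. HAPLN1, the link protein that fastens hyaluronan to proteoglycans, was at 1.66 against 11.6 FPKM, and EDIL3, a secreted integrin ligand of the vessel wall, at 4.81 against 29.1 FPKM.

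**Figure D2:**
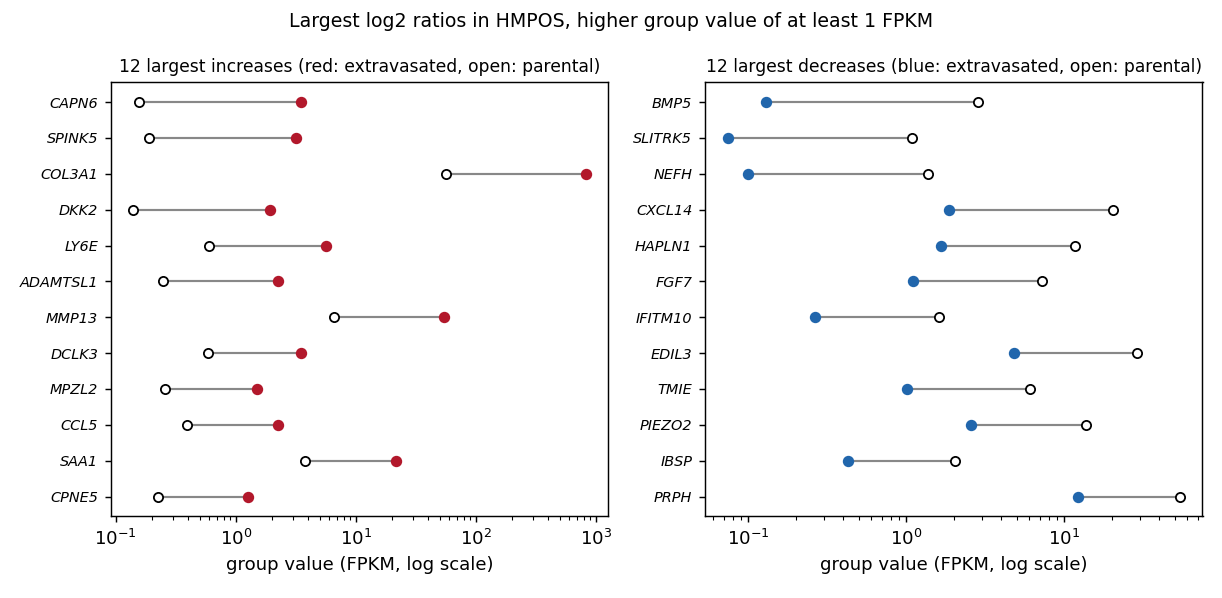
Group FPKM (log scale) of the 12 genes with the largest increase (left) and the 12 with the largest decrease (right) in log2 ratio among genes with a symbol and at least 1 FPKM in the higher group. Open circles are parental and filled circles extravasated HMPOS cells; COL3A1, MMP13 and SAA1 are the increases that end above 10 FPKM, and PRPH is the only decrease that does.

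The genes at 0 in 1 group were 3 and have no ratio. TCIM, a small regulator of transcription, was listed at 1.07 FPKM in extravasated cells and at 0 in parental cells. The small RNA entries named by Rfam family, RF00091 and RF00425, were listed at 0 in extravasated cells and at 6.48 and 19.7 FPKM in parental cells. A further 56 genes were below 1 FPKM in both groups.

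The label of the cells was checked against marker genes. Of 12 osteoblast lineage markers 5 were listed, with COL1A1, SPARC, BGLAP and ALPL higher and IBSP lower. The transcription factors SP7 and DLX5, which direct osteoblast differentiation, were not listed here and stood at 54.5 and 61.8 FPKM in parental HMPOS cells in the table against POS, and the bone cadherin CDH11 at 278 FPKM. None of 10 endothelial, 10 leukocyte, 7 muscle, 7 neural or glial and 5 adipocyte markers was listed, and 1 of 9 epithelial markers was, CDH1 (E-cadherin) at 3.04 against 1.49 FPKM. The markers of other cell types were thus absent from the list but for CDH1, and the levels of unlisted markers in extravasated cells are not known.

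Gene lists of 33 programmes were then read against the table, and 312 of the 1189 genes (26.2%) were on at least 1 list. A list's counts below stand beside the 67% of all listed genes that were higher and their median log2 ratio of 0.58. Of the 32 lists with a listed member, 24 had more higher than lower genes and 5 had more lower than higher genes.

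**Figure D3:**
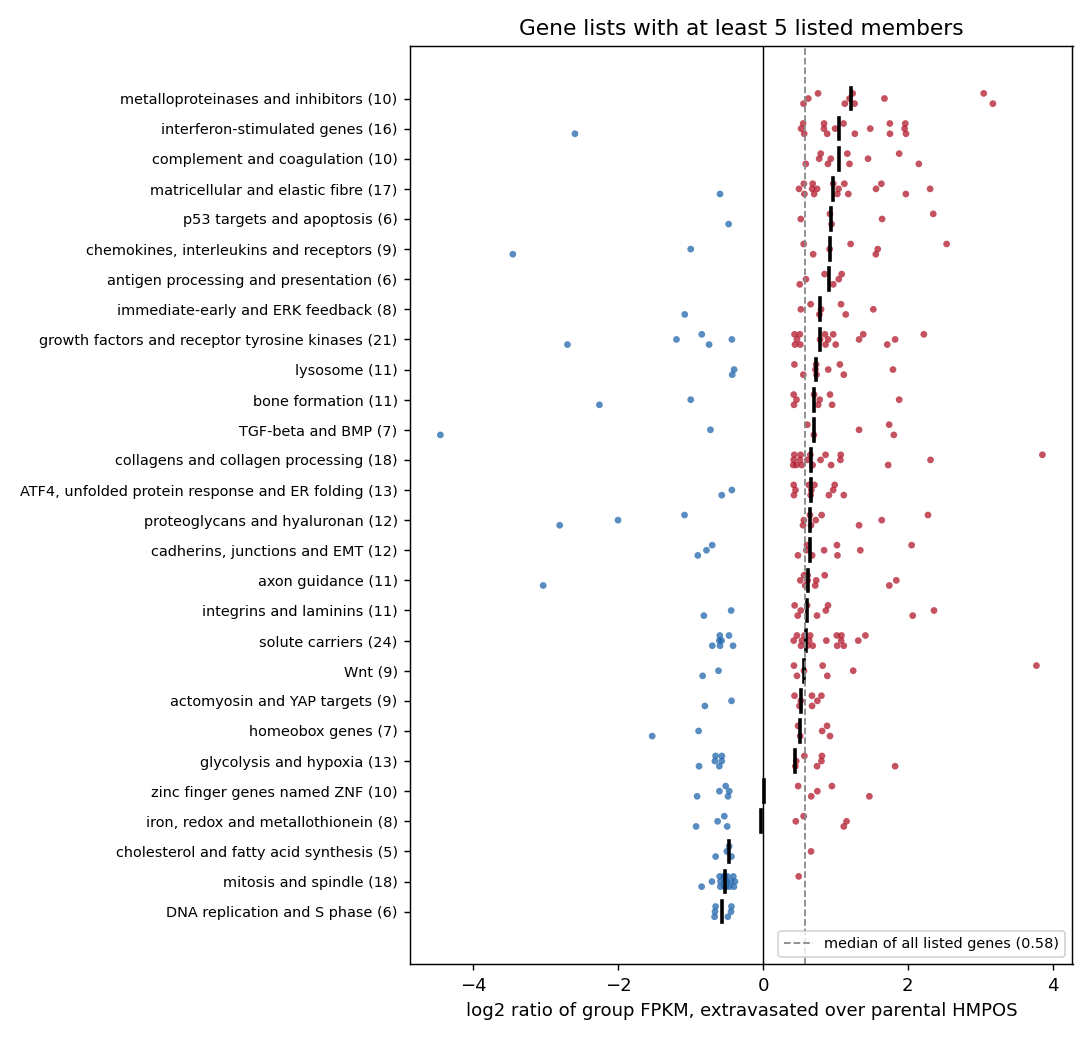
Log2 ratio of each listed member (points, red higher and blue lower) of the gene lists with at least 5 listed members, ordered by their median (black bars), with the number listed in brackets and the median of all 1189 listed genes as a dashed line at 0.58. Metalloproteinases and inhibitors, at a median of 1.22, stand at the top, and mitosis and DNA replication genes, at -0.52 and -0.57, at the bottom.

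Collagens and the enzymes that modify, fold and cross-link them were higher throughout. Of 72 genes on the list 18 were listed, all 18 were higher, and 5 passed 2-fold, with a median log2 ratio of 0.67. Of the fibrillar collagens, COL3A1 differed by 14.5-fold while COL1A1, the main chain of bone collagen, was at 102 against 76.003 FPKM, a fold of 1.34. The table thus shows a far larger difference in type III than in type I collagen. COL13A1, a transmembrane collagen, was at 8.33 against 1.68 FPKM, COL6A3, a chain of the beaded filament collagen VI, at 0.901 against 0.272 FPKM, COL23A1, another transmembrane collagen, at 21.9 against 10.4 FPKM and COL12A1, which coats collagen fibrils, at 306 against 176 FPKM. The other 12 members process collagen, and their folds were smaller, with a median log2 ratio of 0.57. PCOLCE2, a procollagen proteinase enhancer like PCOLCE, was at 44.7 against 21.2 FPKM, and the lysyl oxidases LOXL1, LOXL2 and LOXL3, which cross-link collagen and elastin, were at 68.2 against 42.4 FPKM, 183 against 120.0 FPKM and 19.9 against 10.96 FPKM. PLOD1, a lysyl hydroxylase, was at 189.6 against 133 FPKM, FKBP10, a collagen chaperone of the endoplasmic reticulum, at 453 against 317 FPKM and BMP1, the procollagen C-proteinase, at 92.02 against 66.8 FPKM.

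The list of metalloproteinases, their relatives and inhibitors had the highest median of any list, a log2 ratio of 1.22. Of 58 genes 10 were listed, 10 were higher and 7 passed 2-fold. Among the 7 is ADAMTSL1, which has no protease domain. The 4 matrix metalloproteinases all passed 2-fold. MMP13 differed by 8.27-fold, MMP3 by 3.197-fold, MMP2 by 2.29-fold and MMP25, a membrane-anchored member, by 2.19-fold at 3.41 against 1.56 FPKM. MMP3 and MMP13 are neighbours in a gene cluster on chromosome 5, at 28949630 and 28853641, whereas MMP2 is on chromosome 2. Of the ADAMTS family, ADAMTS2, the N-proteinase of procollagen, was at 39.1 against 16.3 FPKM and ADAMTS12 at 0.7097 against 0.301 FPKM. The cell surface proteinases ADAM12 and ADAM15 were at 7.27 against 4.29 FPKM and 34.3 against 23.3 FPKM. The only listed inhibitor of these enzymes, TIMP2, was also higher, at 84.1 against 54.6 FPKM.

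Proteoglycans and hyaluronan genes are given by role. Of 51 genes 12 were listed, 9 higher and 3 lower, with 3 past 2-fold in each direction. Core proteins were mostly higher, 7 of 8. GPC3 (glypican-3), a heparan sulfate proteoglycan of the cell surface, stood at 9.204 against 1.898 FPKM, ACAN (aggrecan), the large cartilage proteoglycan, at 9.34 against 2.999 FPKM, and the small collagen-binding proteoglycans DCN (decorin) and BGN (biglycan) at 11.7 against 4.69 FPKM and 287 against 164 FPKM. The basement membrane proteoglycans AGRN (agrin) and HSPG2 (perlecan) were at 25.8 against 15.6 FPKM and 23.7 against 15.2 FPKM. The 3 lower genes belong to the hyaluronan network, but that network was not lower as a whole. HAS2, the enzyme that makes hyaluronan, stood at 3.01 against 12.1 FPKM, HAPLN1 at 1.66 against 11.6 FPKM, and VCAN (versican), the large proteoglycan that HAPLN1 fastens to hyaluronan, at 3.998 against 8.48 FPKM, a log2 ratio of -1.08. The sign of the VCAN ratio rests on the reading of the column names. The article reports VCAN as significantly upregulated in extravasated HMPOS and D17 cells, the reverse of the sign given here. CEMIP, which binds hyaluronan for breakdown, and HAPLN3, another link protein, went the other way, at 8.76 against 5.53 FPKM and 79.5 against 54.2 FPKM. ACAN, given above as higher, is also a hyaluronan-binding proteoglycan.

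VCAN and HAPLN1 are neighbours on chromosome 3, at 24127133 to 24239146 and 23999218 to 24103330, and EDIL3 lies before them at 23417820 to 23808380. All 3 were lower, by 2.12-fold, 7.01-fold and 6.05-fold. They were set together after their values were seen.

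Matricellular and elastic fibre genes were higher for 16 of 17 listed members of a list of 57, and 8 passed 2-fold, with a median log2 ratio of 0.97. Matricellular proteins sit in the matrix and modulate adhesion rather than bear load. TNC (tenascin-C) was at 1.15 against 0.294 FPKM, WISP2 at 4.08 against 1.31 FPKM, COMP at 1.1996 against 0.582 FPKM and THBS3 at 51.5 against 25.3 FPKM. THBS1 (thrombospondin-1) differed less, at 7.46 against 5.02 FPKM. Of the elastic fibre genes, FBLN2 and FBLN1 (fibulins) were at 4.399 against 0.889 FPKM and 1.84 against 0.813 FPKM, FBN2 (fibrillin-2) at 2.72 against 1.25 FPKM and MFAP2, which decorates fibrillin, at 1.305 against 0.442 FPKM. MFAP3, grouped with them by name, was the lower member, at 20.4 against 30.8 FPKM.

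Receptors and linkers to this matrix were less uniform. Of 46 integrin and laminin genes 11 were listed, 9 higher and 2 lower, with 2 past 2-fold. These 2 were laminin chains of basement membranes, LAMA4 at 1.12 against 0.219 FPKM and LAMC3 at 5.59 against 1.33 FPKM. The integrin subunits differed by less than 2-fold. ITGA11 and ITGA5, subunits of a collagen and a fibronectin receptor, were at 7.06 against 3.79 FPKM and 44.2 against 30.8 FPKM, ITGB5 at 195 against 117 FPKM, and ITGA6, a laminin receptor subunit, was lower at 10.3 against 13.9 FPKM. DST (dystonin), which links integrins to the cytoskeleton, was lower at 7.49 against 13.2 FPKM.

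Cadherins and junction proteins split in the same uneven way, with 9 of 12 listed genes higher, 4 past 2-fold, out of a list of 71. CDH13, a GPI-anchored cadherin, was at 96.8 against 38.2 FPKM and the epithelial cadherin CDH1 at 3.04 against 1.49 FPKM, while the mesenchymal cadherin CDH2 (N-cadherin) was lower at 2.47 against 4.62 FPKM. The desmosomal cadherin DSG2 was also lower, at 23.8 against 40.8 FPKM. GJB2 and GJA1, gap junction connexins, were at 1.53 against 0.37003 FPKM and 195 against 109 FPKM, and the tight junction protein CLDN1 at 1.58 against 0.778 FPKM. E-cadherin and N-cadherin thus differed in opposite directions, with both below 5 FPKM in either group.

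Bone genes were higher for 9 of 11 listed members of a list of 38, with 1 past 2-fold in each direction and a median log2 ratio of 0.71. ALPL, the phosphatase that allows mineral to form, was at 79.2 against 40.9 FPKM, PHOSPHO1, which supplies phosphate in matrix vesicles, at 26.1 against 15.2 FPKM, and BGLAP (osteocalcin), a late osteoblast protein, at 46.3 against 27.3 FPKM. PHEX, a peptidase that regulates phosphate, was at 0.628 against 0.171 FPKM. IBSP was lower, and TNFRSF11B (osteoprotegerin), the decoy receptor that restrains osteoclast formation, was at 37.3 against 74.6 FPKM.

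Interferon-stimulated genes were higher for 15 of 16 listed members of a list of 72, and 8 passed 2-fold, with a median log2 ratio of 1.05. They were nevertheless low in both groups. IFI6, a mitochondrial protein that restrains apoptosis, was at 20.2 against 5.15 FPKM, and ISG15, a ubiquitin-like modifier, at 12.5 against 3.202 FPKM. IFI35 was at 6.61 against 1.704 FPKM and MX1, a GTPase that traps viral particles, at 2.55 against 0.913 FPKM. The oligoadenylate synthetases OAS1, OAS2 and OAS3, which sense double-stranded RNA, were at 6.505 against 3.26 FPKM, 2.35 against 0.977 FPKM and 2.03 against 0.939 FPKM. Of the members only IFI30, a lysosomal reductase that serves antigen processing, was above 25 FPKM, at 128 against 87.3 FPKM. The transcription factor IRF8 was at 1.51 against 0.448 FPKM, and LGALS9 (galectin-9) at 1.28 against 0.3796 FPKM. IFITM10 was the single lower member. The OAS genes are similar neighbours, and reads shared between them could have been divided unevenly by the authors' counting.

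Class I antigen presentation genes were higher for 6 of 6 listed members of a list of 36, with a median log2 ratio of 0.91. The dog class I genes DLA88, DLA-12 and DLA-64 were at 68.8 against 38.2 FPKM, 135 against 69.1 FPKM and 94.7 against 45.9 FPKM, and DLA-79 at 39.9 against 28.1 FPKM. FCGRT, the class I-like Fc receptor that recycles IgG, was at 31.8 against 14.996 FPKM, and PSMB9, a subunit of the immunoproteasome, at 4.38 against 2.903 FPKM. The DLA genes on chromosome 12, which are DLA88, DLA-12 and DLA-64, are closely similar copies, so their separate values are uncertain. DLA-79 lies on chromosome 18. The DLA genes were above 25 FPKM in both groups, where the interferon-stimulated genes other than IFI30 stayed below it.

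Chemokines, complement and coagulation genes followed. Of 79 chemokine and interleukin genes 9 were listed, 7 higher and 2 lower. CCL5, CCL2 (monocyte chemoattractant protein-1) and CXCL8 (interleukin-8) were the higher chemokines, with CCL2 at 13.1 against 4.36 FPKM and CXCL8 at 0.693 against 0.236 FPKM, and CXCL14 was the lower. TNFSF10 (TRAIL), a death receptor ligand, was at 3.88 against 1.68 FPKM and CSF1, the macrophage growth factor, at 34.9 against 18.4 FPKM. All 10 listed complement and coagulation genes of a list of 53 were higher, 5 of them past 2-fold, with a median log2 ratio of 1.05. SERPING1, the C1 inhibitor, was at 6.503 against 1.46 FPKM, and the C1 proteases C1R and C1S that it restrains were at 36.7 against 16.04 FPKM and 37.4 against 20.1 FPKM. SERPINF1 (PEDF), a secreted serpin that restrains vessel growth, was at 207 against 92.4 FPKM. The anticoagulant protein S, PROS1, was at 1.03 against 0.376 FPKM, and SERPINE2 (protease nexin-1), a serpin that inhibits thrombin and plasminogen activators, was at 72.1 against 47.9 FPKM.

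Cell cycle genes were the clearest group among the lower genes. Of 84 mitosis genes 18 were listed, 1 higher and 17 lower, and of 62 DNA replication genes 6 were listed and 6 were lower. None of them passed 2-fold. The 23 lower genes differed by 1.31 to 1.80-fold and lay on 11 chromosomes. They were well expressed, between 11.02 and 316 FPKM in parental cells. CDK1 was at 233 against 316 FPKM, its partner CCNB2 (cyclin B2) at 91.5 against 119.7 FPKM, and CDC25C, the phosphatase that activates them, at 7.34 against 11.02 FPKM. The outer kinetochore genes NDC80 and NUF2 were at 57.7 against 84.04 FPKM and 33.1 against 49.9 FPKM, KNL1, the platform for the spindle checkpoint, at 12.2 against 19.9 FPKM, and BUB1B, a checkpoint kinase, at 65.9 against 90.9 FPKM. CENPQ, a kinetochore subunit, showed the largest difference of the set at 15.002 against 27.01 FPKM. For DNA replication, MCM3, part of the replicative helicase, was at 97.95 against 137 FPKM, PRIM2, the large primase subunit, at 37.8 against 59.6 FPKM, and E2F8, a repressor of E2F targets, at 12.5 against 19.8 FPKM. SPC24, the partner of NDC80 and NUF2 in the same complex, was the higher member at 23.8 against 16.9 FPKM. On the p53 list 5 of 6 listed genes of 54 were higher. CDKN1A (p21), an inhibitor of cyclin-dependent kinases, was at 10.3 against 5.33 FPKM, PLK2 at 6.3003 against 1.24 FPKM and GADD45A at 3.98 against 2.099 FPKM, while RRM2B, a p53-inducible ribonucleotide reductase subunit, was at 18.2 against 25.3 FPKM.

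**Figure D4:**
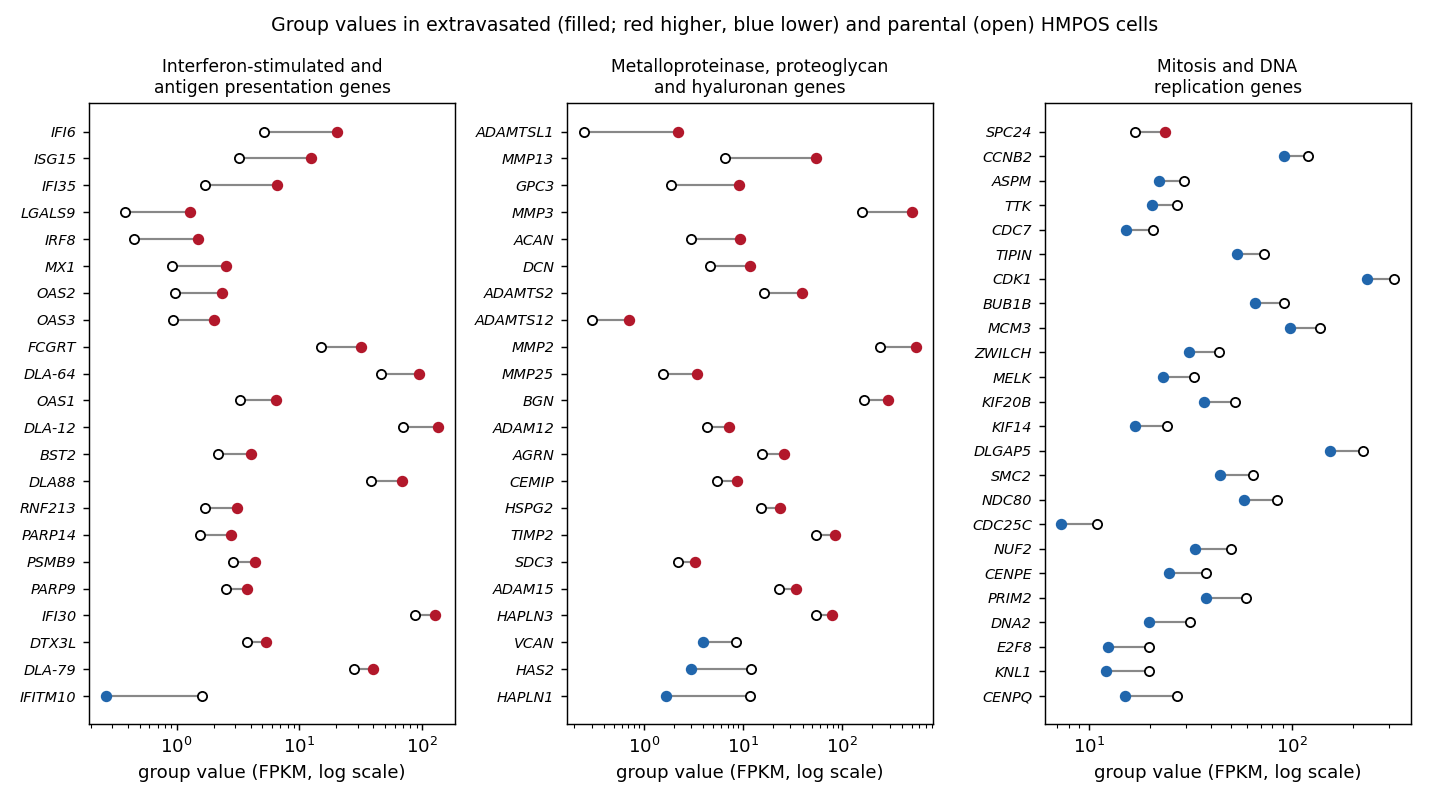
Group FPKM (log scale) of the listed interferon-stimulated and antigen presentation genes (left), metalloproteinase, proteoglycan and hyaluronan genes (middle), and mitosis and DNA replication genes (right), with open circles for parental and filled circles for extravasated HMPOS cells. In the right panel 23 of 24 genes are lower by less than 2-fold, and in the left and middle panels the lower genes are IFITM10, VCAN, HAS2 and HAPLN1.

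Signalling genes are given by role. Of growth factors and receptor tyrosine kinases 21 of 95 were listed, 16 higher and 5 lower. Among the ligands and binding proteins, PTN (pleiotrophin), a heparin-binding growth factor, stood at 358 against 76.8 FPKM, NRG1 (neuregulin-1), a ligand of ERBB receptors, at 4.302 against 1.31 FPKM, VEGFC, a growth factor of lymphatic vessels, at 1.14 against 0.456 FPKM, and ANGPTL4 at 2.73 against 0.772 FPKM. FGF7 and ANGPT1 (angiopoietin-1), which stabilises vessels, were lower, with ANGPT1 at 6.81 against 15.6 FPKM. HGF, the ligand of MET, was at 0.9503 against 1.59 FPKM and MET itself at 9.44 against 6.83 FPKM. Of the receptors, EGFR alone passed 2-fold, at 3.59 against 1.38 FPKM, and PDGFRA was at 45.5 against 25.02 FPKM. KIT was lower, at 1.16 against 2.08 FPKM, and IGF1R, the insulin-like growth factor receptor, at 7.22 against 9.73 FPKM.

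In the TGF-beta and BMP pathway 7 of 55 genes were listed, 5 higher and 2 lower. The 2 listed ligands were lower, BMP5 by 21.95-fold and TGFB2 by 1.65-fold at 5.51 against 9.11 FPKM. The antagonists CHRD (chordin) and CHRDL1, which bind BMP ligands outside the cell, were higher at 1.78 against 0.533 FPKM and 1.66 against 0.475 FPKM, and FSTL1, a follistatin-like secreted protein, was at 345 against 212 FPKM. ID3, a direct BMP target, was higher like the antagonists, at 52.7 against 34.5 FPKM. DCN, also on this list, was at 11.7 against 4.69 FPKM.

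In the Wnt pathway 9 of 65 genes were listed, 7 higher and 2 lower, and the antagonists were found on both sides. DKK2 was 13.7-fold higher, and SFRP4 and DKK3 were at 4.45 against 2.52 FPKM and 79.4 against 57.4 FPKM. WIF1, which binds Wnt ligands directly, was lower at 58.6 against 105 FPKM, as was LEF1, a transcription factor of the pathway, at 12.03 against 18.4 FPKM. The receptors FZD1 and FZD2 were at 13.2 against 8.92 FPKM and 51.2 against 38.1 FPKM. The median of this list, 0.57, fell just below that of all listed genes.

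Of the immediate-early and ERK feedback genes 8 of 55 were listed and 7 were higher. JUN, an AP-1 subunit, was at 87.7 against 39.8 FPKM, its partner FOSL1 at 4.92 against 2.33 FPKM, PHLDA1 at 15.2 against 5.296 FPKM and the phosphatase DUSP1 at 4.63 against 2.66 FPKM. NR4A2, an immediate-early nuclear receptor, was the lower member at 0.719 against 1.52 FPKM. Axon guidance genes, which also steer endothelial and tumour cell migration, were higher for 10 of 11 listed genes of 67. All 8 listed ligands were higher, with SEMA5B at 0.944 against 0.264 FPKM, SEMA7A at 0.874 against 0.261 FPKM and SEMA3B at 32.2 against 19.3 FPKM, and the receptor ROBO2 was lower at 0.103 against 0.848 FPKM.

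Lysosomal genes were higher for 9 of 11 listed genes of 72, with a median log2 ratio of 0.73. The cathepsins led the list. CTSK, the collagen-degrading protease of osteoclasts, was at 48.3 against 13.9 FPKM, CTSH at 52.7 against 24.3 FPKM, CTSZ at 71.02 against 34.04 FPKM and CTSB, the most abundant of them, at 263 against 179 FPKM. ATP6V1C1, a subunit of the proton pump that acidifies lysosomes, was lower at 80.3 against 108 FPKM. Of ATF4 and unfolded protein response genes 13 of 58 were listed and 11 were higher. ATF4 was at 342 against 255 FPKM, ASNS (asparagine synthetase) at 36.6 against 19.5 FPKM, TRIB3 at 27.03 against 13.6 FPKM and SLC7A11, the cystine transporter, at 4.52 against 2.09 FPKM. Solute carriers were higher for 17 of 24 listed genes (70.8%), near the 67% of all listed genes, with a median log2 ratio of 0.59 and 7 past 2-fold. SLC29A4, a monoamine transporter, showed the largest difference at 11.9 against 4.46 FPKM.

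Metabolic genes did not share a direction. Of glycolysis and hypoxia genes 13 of 45 were listed, 7 higher and 6 lower. CA9, a carbonic anhydrase and hypoxia marker, was at 83.5 against 47.5 FPKM and the aldolase ALDOC at 190.2 against 113 FPKM, while the glucose transporter SLC2A1 was at 25.02 against 38.02 FPKM and hexokinase HK2 at 17.4 against 27.6 FPKM. The hypoxia-induced genes ADM and ANKRD37 were lower at 7.21 against 11.4 FPKM and 8.82 against 16.3 FPKM. Sterol and fatty acid synthesis genes were lower for 4 of 5 listed genes of 49, with FADS1, a fatty acid desaturase, as the higher gene at 161 against 102 FPKM. Redox genes divided 4 and 4, with GSTM3 (a glutathione transferase) at 73.5 against 33.05 FPKM and both subunits of glutamate-cysteine ligase lower, GCLC at 22.9 against 33.1 FPKM and GCLM at 54.9 against 77.4 FPKM.

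The remaining lists held few genes. Of 177 genes of the mitochondrial ribosome and respiratory chain 0 were listed, and of 82 cytosolic ribosomal protein genes 2 were, RPL13 at 395 against 274 FPKM and RPL35A at 379.5 against 282 FPKM. Of 68 heat shock, chaperonin and proteasome genes 4 were listed, 2 in each direction, with the small heat shock protein HSPB1 at 147 against 107 FPKM. Actomyosin and YAP target genes were higher for 7 of 9 listed genes of 57, led by the myosin kinase MYLK at 48.8 against 27.9 FPKM. Homeobox genes were higher for 5 of 7 (71.4%), near the 67% of all listed genes. The craniofacial regulator ALX4 was at 2.85 against 1.4997 FPKM, and HOXD3 was the largest decrease at 0.483 against 1.39 FPKM. ZNF-named genes divided 5 and 5. The 3 listed splicing factors, HNRNPD, HNRNPDL and PRPF4B, were lower, HNRNPD at 90.1 against 125 FPKM, and the only listed chromatin gene, SUZ12 of the Polycomb repressive complex, was at 31.2 against 45.05 FPKM.

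The direction of listed genes differed widely between chromosomes. On the 31 chromosomes with at least 15 listed genes, which hold 1100 of the 1189, the share of higher genes ran from 4% to 98.6% with a median of 70.6%, on 5 it was over 90% and on 7 under 50%. On chromosome 5, 71 of 72 listed genes were higher, with a median log2 ratio of 0.73. MMP13, MPZL2, CALB2 (a calcium-binding protein), ISG15, IRF8, MMP3, CDH13 and JUN are among them, and the only lower gene was ARHGAP20 at 1.33 against 2.33 FPKM. On chromosome 9, 66 of 70 were higher, among them CCL5. On chromosomes 23, 33 and 18 the counts were 23 of 25, 20 of 22 and 39 of 43.

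Chromosome 22 was the opposite case, with 1 of 25 listed genes higher and 24 lower. The lower genes had a median log2 ratio of -0.51 and quartiles of -0.67 and -0.47. The genes named next have varied roles. SUCLA2, a subunit of a citric acid cycle enzyme, was at 80.3 against 108 FPKM, CDC16, a subunit of the anaphase-promoting complex, at 82.6 against 111 FPKM, TSC22D1, a transcription factor, at 112 against 157 FPKM and UCHL3, a deubiquitinating enzyme, at 48.3 against 67.5 FPKM. PCCA, a mitochondrial carboxylase subunit, was at 33.7 against 47.3 FPKM and DIAPH3, an actin-nucleating formin, at 37.3 against 56.3 FPKM. SLITRK5, at a log2 ratio of -3.88, lies on this chromosome, and KLF5, a transcription factor, was the higher gene at 2.86 against 1.77 FPKM. On chromosome 13 the share of higher genes was 11 of 40 (27.5%), on chromosome 4 it was 22 of 64 (34.4%), on chromosome 32 it was 8 of 20 and on chromosome 30 it was 15 of 36.

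**Figure D5:**
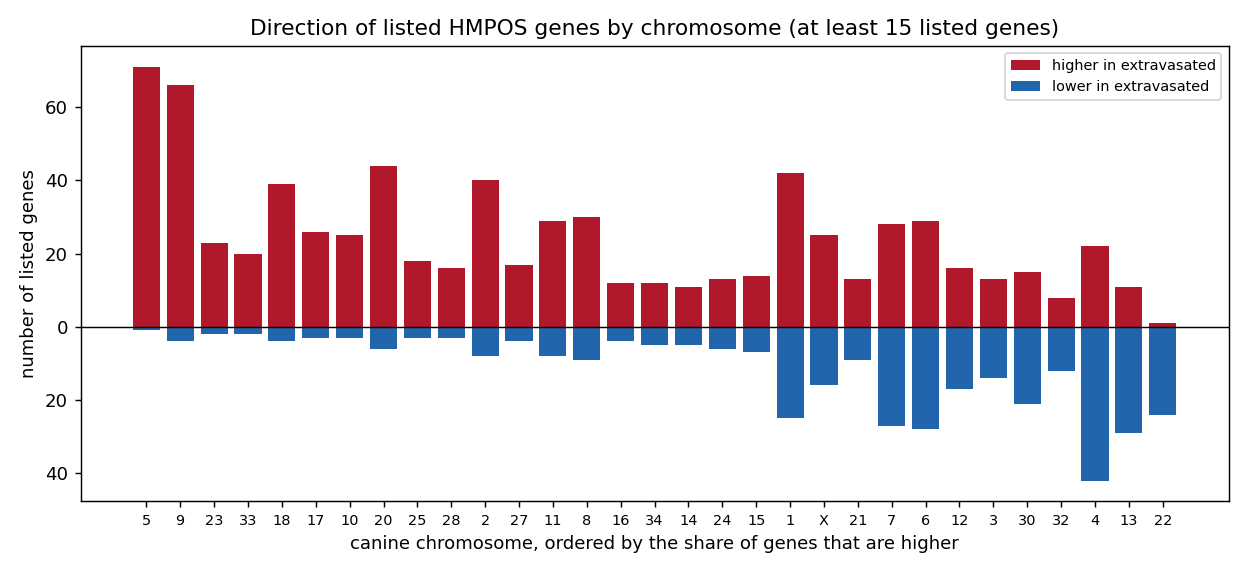
Number of listed genes higher (red, upwards) and lower (blue, downwards) in extravasated HMPOS cells on each chromosome with at least 15 listed genes, ordered by the share that is higher. Chromosome 5 holds 71 higher and 1 lower gene, and chromosome 22, at the right end, 1 higher and 24 lower.

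The shares are given next for genes with short and with long deposited intervals. On chromosome 5, 40 of 40 genes with an interval under 25 kb and 31 of 32 with a longer interval were higher, and on chromosome 22, 1 of 7 and 0 of 18. With 1 exception on each of these chromosomes the split could hardly come out otherwise, so it says nothing on interval width. On chromosome 13, 6 of 12 and 5 of 28 were higher, and on chromosome 4, 10 of 24 and 12 of 40. Past 2-fold, 8 genes on chromosome 4 were higher and 1 lower, and 6 and 5 on chromosome 13, so most of the lower genes there had small differences. Past 2-fold on chromosome 22, 3 genes were left, SLITRK5, TRIM13 and DCT, all lower. In D17, whose groups share no library with HMPOS, 52.4% of the 231 listed genes on chromosome 5 and 49.1% of the 55 on chromosome 22 were higher, against 54.2% higher and 45.8% lower of all genes in its table, and shares on the same 31 chromosomes ran from 40.5% to 69.6%. Across the 31 chromosomes the shares in both lines had a Pearson correlation of 0.24, given as a description of points that share gene content. The difference between the lines was not tested.

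Runs of consecutive listed genes with the same direction were long in HMPOS. They were found after the values were seen. The longest was on chromosome 5, where 64 listed genes from MMP13 to BEAN1, between 28853641 and 82808323 (54.0 Mb), were all higher. On chromosome 9, 41 listed genes between 110344 and 23753435 were higher, and on chromosome 2, 29 between 58804349 and 84676859. The longest runs of lower genes held 15 genes each, on chromosomes 6, 12 and 22. That on chromosome 22 ran from TBC1D4 to CDC16, between 29109010 and 61312285 (32.2 Mb). On a smaller scale, listed genes next to each other, with starts within 500 kb, had the same direction in 340 of 406 pairs (83.7%), where the overall shares alone give 55.8%. That figure makes no allowance for neighbours that could share reads, such as the OAS and DLA genes. Nor does it allow for genes with the same deposited interval, as B3GNT9 and C5H16orf70 have. It also leaves out the share of higher genes on each chromosome, which ran from 4% to 98.6%. The gap between 83.7% and 55.8% therefore cannot be read as a pattern of close neighbours alone.

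In 83 loci, at least 3 listed genes followed each other with starts within 500 kb, 360 genes in all. In 49 of the loci all genes were higher, in 12 all were lower and in 22 directions were mixed. Some loci hold families of like function. The OAS locus on chromosome 26, between 10385073 and 10759589, held OAS1, OAS3 and OAS2 with PLBD2 and SDSL, all higher. The locus on chromosome 33 between 25640914 and 26227557 held the interferon-induced ADP-ribosylation genes PARP9, DTX3L and PARP14 with PARP15, SEMA5B and PDIA5, all higher. The complement proteases C1R and C1S lay with C1RL and the collagen hydroxylase P3H3 on chromosome 27, between 37935006 and 38195210, and all 4 were higher.

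Other loci hold genes without a shared role. On chromosome 5 between 56230817 and 57120909, ISG15 lay with AGRN, SDF4, MXRA8, VWA1, SSU72, MIB2 and PRKCZ, and all 8 were higher. On chromosome 1 between 106967296 and 107674722, FCGRT lay with RCN3, SLC17A7, CCDC155, DKKL1, DHDH, HSD17B14 and CA11, and all 8 were higher. On chromosome 12 between 20426725 and 21425868, GSTA4, ICK, FBXO9, ELOVL5, GCLC and LRRC1 were all lower, so that the decreases of ELOVL5 and of GCLC named above fall in 1 stretch of the genome. ZNF451, BAG2, RAB23 and PRIM2 were lower between 24260546 and 24812205 of the same chromosome.

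The parental HMPOS group is also 1 side of the table against POS, so POS values are given here on their own, since the tables were normalised separately. Of the 16 interferon-stimulated genes listed above 14 were in that table, with POS values from 9.77 FPKM for IFITM10 to 791 FPKM for ISG15. MX1 was at 714 FPKM, OAS1 at 184 FPKM, IFI6 at 156 FPKM and PARP9 at 17.2 FPKM in POS. MMP13 stood at 1286 FPKM and PTN at 2047 FPKM in POS, and COL3A1 at 10.2 FPKM. Of the large decreases in extravasated HMPOS cells, CXCL14 and BMP5 were listed at 0 in POS, and HAPLN1, FGF7, PRPH and EDIL3 stood at 0.123, 0.104, 0.318 and 1.11 FPKM. VCAN stood at 26.5 FPKM in POS.

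D17 values are given for the genes that were also listed in the other line, with the columns read in the same way. Of all D17 genes 54.2% were higher and 45.8% lower, and 26.8% passed 2-fold, 18.3% as higher and 8.5% as lower. The D17 table held 415 of the genes higher in HMPOS, of which 382 (92.0%) were higher there too, and 199 of the lower genes, of which 153 (76.9%) were lower there too, and the counts of each list stand beside these shares. Of the interferon-stimulated genes listed in HMPOS, 14 were in the D17 table and 14 were higher there, with MX1 at 542 against 217 FPKM and IFI6 at 65.5 against 6.17 FPKM in D17. All 6 antigen presentation genes, all 9 complement and coagulation genes and all 7 genes of the metalloproteinase and inhibitor list that were in the D17 table were higher. MMP2 was at 1.15 against 0.372 FPKM in D17. Of the cell cycle set, 18 mitosis and 6 replication genes were in the D17 table and all 24 were lower, SPC24 included at 18.7 against 34.6 FPKM. COL3A1, at 4.502 against 13.002 FPKM, was lower in D17, as was SPINK5 at 3.99 against 6.53 FPKM. NEFH and PRPH, among the largest decreases in HMPOS, were higher in D17 at 4.01 against 2.04 FPKM and 1.75 against 0.774 FPKM. CAPN6, DKK2, BMP5, CXCL14, HAPLN1, FGF7 and EDIL3 were not in the D17 table. Whether any gene differed more in HMPOS than in D17 was not tested, since no value per library was at hand.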

How the data were processed

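The 1189 rows of extravasated against parental HMPOS cells were used whole, with 1 FPKM value per group that the authors made from the 3 libraries of each group and deposited. The submitters' processing notes name Trimmomatic 0.38, TopHat2, Cufflinks, Cuffdiff and the build CanFam3.1, whereas the article describes STAR, voom and limma and other RNA and library kits than the labels. The deposited tables also hold the authors' log2 ratio (parental over extravasated), test statistic, p-value and q-value, and none of these was used. Rows reached a table through the authors' test, so a missing gene says nothing on its level. No column of single samples was left unused (0).

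Log2 ratios were recomputed from the group FPKM with no pseudocount, and the counting steps were tested on simulated data. Genes were named as the 12 largest increases and decreases with at least 1 FPKM in the higher group, the 10 highest FPKM, the 5 largest FPKM differences in each direction, genes at 0, list members past 2-fold or the 4 largest, and members of loci (at least 3 listed genes with starts within 500 kb). Other genes were named after their values were seen. The members and lists were chosen with earlier results of these data known. A symbol that a spreadsheet had turned into a date (1 row) was counted in all totals and left out of the ranking of ratios. Whether the first position of a gene counts from 0 or 1 is not stated. Python 3.11.15, numpy 2.4.6, pandas 2.3.3 and matplotlib 3.10.9 were used.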

Additional observations from a re-analysis of the deposited data

How the results depend on the processing

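Depth and the spread between libraries are unknown, which limits genes below 1 FPKM most, and only genes that passed the authors' test are listed. The counts of genes past 2-fold, 244 higher and 57 lower, depended on the threshold and on the treatment of low values. With the column names exchanged they would be exchanged. They were 593 and 174 past 1.5-fold, 31 and 19 past 4-fold, 797 and 392 at any fold, 88 and 21 with at least 5 FPKM in the higher group, 84 and 26 with 1 FPKM added to both groups, and 72 and 361 after centring on the median log2 ratio of the listed genes (0.58). With at least 1 FPKM in the higher group they were 211 and 46, with 0.1 FPKM added 215 and 47, without genes at 0 in 1 group 243 and 55, and with 1 row per symbol 244 and 56. Centring lowers every ratio by the same amount, and the median of genes listed by a test is no measure of equal expression. It turned the median of 7 of 32 lists below 0, to -0.0188 for Wnt, -0.11 for ribosomal proteins, -0.14 for glycolysis and hypoxia, -0.58 for heat shock, -0.0628 for actomyosin, -0.58 for ZNF-named and -0.0715 for homeobox genes. The ZNF median, at 0.01, was -0.0549 with 1 FPKM added and -0.47 with at least 1 FPKM in the higher group. The cause was not tested. With 1 FPKM added, the ratios of 58 named genes moved by more than 1.5-fold and 408 did not, and a constant added to both groups cannot change a sign. Parental FPKM taken from the table against POS, where the same group is given with nearly the same values, moved for none of 349 named genes. No paired analysis was possible because single libraries have no values here, and no replicate could be left out on that account.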

Other observations

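Genes outside the lists and among those with more than a 4-fold difference in HMPOS add a few secreted and surface proteins. They were chosen after their values were seen. GPNMB, a transmembrane glycoprotein of osteoblasts and macrophages, was at 9.16 against 1.75 FPKM in HMPOS and at 50.5 against 4.37 FPKM in D17. DAB2, an endocytic adaptor, was at 4.51 against 0.924 FPKM and at 53.4 against 21.2 FPKM in D17. The muscle ubiquitin ligase FBXO32, a FOXO target, was at 16.5 against 3.82 FPKM and at 19.3 against 1.63 FPKM in D17, and the metallothionein MT1X at 1.33 against 0.308 FPKM and at 23.6 against 2.26 FPKM. CALB2 (calretinin), on chromosome 5, was at 4.63 against 0.829 FPKM. FGD3, a guanine nucleotide exchange factor for CDC42, had a high ratio at low FPKM, 0.699 against 0.0563 FPKM. On the lower side, EYA4, a transcriptional coactivator, was at 0.1295 against 0.70005 FPKM and FAM78B at 0.267 against 1.07 FPKM, both near or below 1 FPKM. The 4 genes given with a D17 value were higher in the column read as extravasated in either line.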
